A study of Mus musculus with 2 samples.

Results

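The surfactant protein genes Sftpc, Sftpb, Sftpa1 and Sftpd, 4 of the 31053 genes listed for the control library, are described here in lung epithelial cells of the mouse at embryonic day 15. They were taken by symbol. The library came from 1 control sample of lung epithelial cells sorted by flow cytometry, profiled by droplet RNA sequencing of transcript 3′ ends. A second library, of the same age and tissue, carried knockouts of LEF/TCF transcription factors, and its expression was not analysed here, so no statement on the knockout is made. The labels give neither the alleles, the driver of the knockout, the strain nor the number of embryos pooled.

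Pulmonary surfactant is a film of lipid and protein that lowers surface tension in the air spaces. SP-C, from Sftpc, and SP-B, from Sftpb, are small hydrophobic proteins that work within the lipid film, whereas SP-A, from Sftpa1, and SP-D, from Sftpd, are collectins, soluble lectins that bind microbes. In adult lung all 4 are products of alveolar type 2 cells, and SP-B is made by secretory airway cells too. In the embryo Sftpc is already transcribed in the distal tip progenitors, long before surfactant is secreted.

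In GENCODE M21 (mouse build GRCm38) all 4 are protein-coding genes that no other annotated gene overlaps. Sftpc (ENSMUSG00000022097) lies on the minus strand at chr14:70520949-70524081 and Sftpb (ENSMUSG00000056370) on the plus strand at chr6:72304610-72314371. The collectin genes are neighbours, with Sftpa1 (ENSMUSG00000021789) on the plus strand at chr14:41131782-41136452 and Sftpd (ENSMUSG00000021795) on the minus strand at chr14:41172214-41185149. A stretch of 35762 bases separates them.

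Of the 4 members, Sftpb and Sftpa1 matched the RefSeq promoter table, and their upstream sequences are shown beside levels that differed between the cell classes. Those of Sftpc and Sftpd are not shown. Both sequences come from RefSeq (GRCm38.p6), read 5′ to 3′ on the plus strand, and run from 250 to 7 bases before the RefSeq start. The window is chr6:72304360-72304603 for Sftpb and chr14:41131538-41131781 for Sftpa1. Capitals mark matches, on either strand, to the core bound by NKX2-1 (CAAG), the lung lineage factor, to a FOXA motif (TGTTTNC) and to a TATA box (TATAA), none of which overlapped another.
Sftpb: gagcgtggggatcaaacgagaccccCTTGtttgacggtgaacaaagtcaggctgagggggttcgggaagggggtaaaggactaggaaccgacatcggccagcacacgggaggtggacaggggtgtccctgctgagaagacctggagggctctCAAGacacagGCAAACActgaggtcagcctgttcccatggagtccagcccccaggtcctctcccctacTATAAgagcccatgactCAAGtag
Sftpa1: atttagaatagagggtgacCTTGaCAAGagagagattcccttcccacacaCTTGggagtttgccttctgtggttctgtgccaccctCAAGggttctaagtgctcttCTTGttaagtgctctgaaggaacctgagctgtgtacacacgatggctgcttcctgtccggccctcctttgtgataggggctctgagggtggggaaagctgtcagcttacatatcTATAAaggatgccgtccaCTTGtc
A TATAA began 30 bases before the start in both genes, and 23.2% of the 27025 promoters of the same length held one. CAAG matched at 3 places upstream of Sftpb and at 6 upstream of Sftpa1. Among all promoters 86.2% had at least 1 match, 35.7% at least 3 and 2.63% at least 6. TGTTTNC matched once upstream of Sftpb, on the minus strand, and at no place upstream of Sftpa1, against 17.5% of promoters with a match. These are letter matches, and binding was not measured.

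A unique molecular identifier (UMI) stands for 1 captured RNA molecule, whatever the transcript's length, and levels are counts per 1000000 UMIs of the class (CPM). The library held 53789893 UMIs over 3568 barcodes, of which 3457 were kept (at least 1000 genes and at most 10% mitochondrial UMIs), with a median of 12826 UMIs per cell. The barcode lists of both libraries shared 29 sequences (0.813% of the control's). Of the cells kept, 249 (7.20%) carried at least 4 Xist UMIs and a Y-linked UMI and are called mixed-sex. Such droplets can hold a male and a female cell. The mark uses raw UMIs without scaling to depth, so a deep cell meets it more readily. Summed markers in the 3415 epithelial cells were 1763 CPM for pan-epithelial genes, 7.56 for mesenchymal, 18.6 for immune, 1.05 for endothelial and 0.957 for red cells. Each group has 1 library, so replicate spread is unknown and nothing was tested. The exact 95% intervals given in parentheses account for counting error alone.

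Cells were clustered without the 4 surfactant genes, so their levels did not shape the classes. The distal progenitor-like class held 1318 cells, with Sox9, the tip progenitor factor, at 169 CPM and Sox2, the airway factor, at 3.03 CPM. The airway-like class held 688 cells, with Sox9 at 49.4 CPM and Sox2 at 149 CPM. A cluster of 505 distal cells was led by Clu and Dlk1 and is called Clu-high distal. The rule gave this name where at least 3 of 14 type 2 markers reached 2 times the level of all other cells. The 14 did not include the surfactant genes. The 4 that did so, Lamp3, Napsa, Egfl6 and Ctsh, are thus the criterion for the name and not a separate result. By this rule it was the group closest to an alveolar type 2 identity. None of the 14 reached 2 times the level of the distal progenitor-like class, and their summed level was 378 CPM against 264 CPM. Type 1 markers summed to 928 CPM against 732 CPM, and Sox9 remained at 175 CPM. The cluster was therefore not called alveolar type 2. A further 904 epithelial cells took no name. They comprised a deep cluster of 646 cells led by Smoc2, of which 23.1% were mixed-sex, a cluster of 230 cells led by Smoc2 with Krt15 among its leading genes, and a cluster of 28 cells. A cluster of 42 mesenchymal-like cells, which should lack surfactant transcripts, served as the measure of free RNA. The immune markers summed to 58.2 CPM in the distal progenitor-like class and to between 1.33 and 2.80 CPM in the other epithelial classes.

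The members differed from each other by orders of magnitude. Over the epithelial cells Sftpc stood at 1369 CPM (interval 1359 to 1379), the 130th of all genes in level. Sftpb, at 32.3 CPM (30.8 to 33.9), and Sftpa1, at 35.1 CPM (33.5 to 36.7), had near 2 UMIs for every 100 of Sftpc: 2.36 (2.25 to 2.47) and 2.56 (2.45 to 2.69). Sftpd was found as 4 UMIs in 4 cells of the whole library, or 0.0751 CPM (0.0205 to 0.192). Sftpc thus made up nearly all surfactant protein transcripts at this age, and the gene for SP-D was close to the limit of detection.

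**Figure D1:**
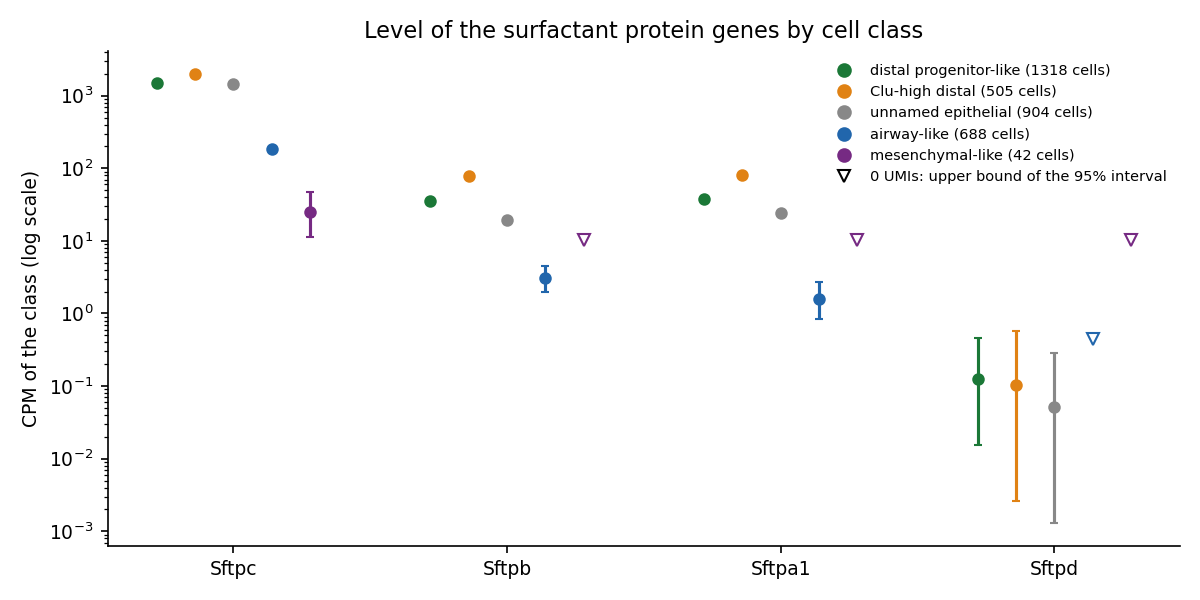
Level of each surfactant protein gene in CPM (log scale) in 5 cell classes of the control library, with exact 95% Poisson intervals; open triangles give the upper bound where no UMI was found. Sftpc lay between 1429 and 2012 CPM in the distal progenitor-like, Clu-high distal and unnamed classes, against 187 CPM in airway-like and 24.8 CPM in mesenchymal-like cells, and Sftpd was below 1 CPM in every epithelial class.

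Sftpc, which encodes SP-C, was higher in both distal classes than in the airway. Distal progenitor-like cells had 24036 UMIs, or 1517 CPM (1498 to 1537), and a cell held from 0 to 234 UMIs with a median of 9. Clu-high distal cells had 2012 CPM (1984 to 2041), with 0 to 294 UMIs per cell and a median of 21. The unnamed cells had 1429 CPM (1412 to 1446), and airway-like cells had 187 CPM (178 to 197), with a median of 0 UMIs per cell and a highest value of 90. By level the order was Clu-high distal, distal progenitor-like, unnamed and airway-like. The intervals did not overlap, but they leave out the spread between cells. The clusters of the distal progenitor-like class, at 1857 and 1105 CPM, lay on both sides of the unnamed value. The order of the distal progenitor-like and unnamed classes was therefore not settled. Cells of the classes overlapped widely, since each class had cells with 0 Sftpc UMIs.

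Sftpb, which encodes SP-B, followed the same order. It stood at 77.7 CPM (72.3 to 83.5) in Clu-high distal cells, 36.0 CPM (33.1 to 39.1) in distal progenitor-like cells, 19.2 CPM (17.4 to 21.3) in the unnamed cells and 3.04 CPM (1.97 to 4.49) in airway-like cells. The airway value rested on 25 UMIs in 23 cells. No cell had more than 11 Sftpb UMIs.

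Sftpa1, the gene of SP-A, had nearly the levels of Sftpb in both distal classes, at 80.0 CPM (74.5 to 85.9) in Clu-high distal cells and 38.2 CPM (35.2 to 41.4) in distal progenitor-like cells. In the unnamed cells it stood at 24.6 CPM (22.5 to 26.9). In airway-like cells it stood at 1.58 CPM (0.843 to 2.71), from 13 UMIs in 13 cells. For every 100 Sftpb UMIs there were 106 of Sftpa1 (94.5 to 119) in distal progenitor-like cells and 103 (93.0 to 114) in Clu-high distal cells. In the unnamed cells there were 128 (112 to 147), with 131 (114 to 151) in the deep cluster and 94.1 (56.2 to 157) in the cluster of 230 cells. In the distal progenitor-like class the cluster led by Spry2 had 124 (102 to 151). The one led by Col18a1 had 96.8 (83.6 to 112). A higher Sftpa1 was thus not particular to the unnamed cells, and it was not settled for their cluster of 230. The airway-like cells had 52.0 (24.4 to 106), an interval that includes the Clu-high distal value and overlaps the distal progenitor-like interval.

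Sftpd, the gene of SP-D, gave 2 UMIs in distal progenitor-like cells, 1 in Clu-high distal cells and 1 in the unnamed cells. In airway-like cells 0 UMIs allowed a level of up to 0.365 CPM (3 counts). The 4 cells held 11, 124, 199 and 236 Sftpc UMIs, against medians between 9 and 21 in their classes, and 3 of the 4 also carried Sftpa1. In the same order the cells held 19994, 15443, 16594 and 57456 UMIs of all genes, and the last was mixed-sex. The Sftpc counts are raw and the comparison is not matched for depth, so it does not tie Sftpd to cells high in Sftpc. No ratio is given for Sftpd.

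Distal and airway cells were compared first. The ratio of distal progenitor-like to airway-like CPM was 8.11 for Sftpc (7.70 to 8.54), 11.8 for Sftpb (7.93 to 18.4) and 24.1 for Sftpa1 (14.01 to 45.6). All 3 measurable members were thus at least 2-fold higher in distal cells. Of the 10618 genes for which the classes together gave 50 UMIs or more, 3.12% were at least 2-fold higher in the distal class and 8.9% at least 2-fold lower. Ranked by this ratio, Sftpa1 was the 10th, Sftpb the 16th and Sftpc the 31st gene. The direction held in all 38 ratios under other settings, but the size did not. Over 13 alternative settings the Sftpc ratio ran from 3.32 to 27.8, the Sftpb ratio from 4.44 to 37.3 and the Sftpa1 ratio, over 12 settings, from 4.86 to 160. For Sftpa1 the highest value rested on 1 airway UMI (interval 28.5 to 6326), and for Sftpb on 2 airway UMIs (10.2 to 309). The 4 lowest Sftpc ratios came from other clusterings, in which the airway class was 10.6% to 13.3% mixed-sex, against 7.27% here. With the cell-cycle genes kept in the clustering, the airway class was 4.68% mixed-sex and the Sftpc ratio was 12.7 (11.8 to 13.7). The share and the ratio did not move together under every setting. Marker gates in place of clusters set epithelial cells with Sox9 and no Sox2 UMI against those with Sox2 and no Sox9 UMI. The gates gave 10.7% mixed-sex airway cells and a ratio of 10.1 (8.95 to 11.4). Thinning all cells to 5000 UMIs gave 7.76% and 13.1 (11.8 to 14.6). Both ratios were above the 8.11 reported.

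**Figure D2:**
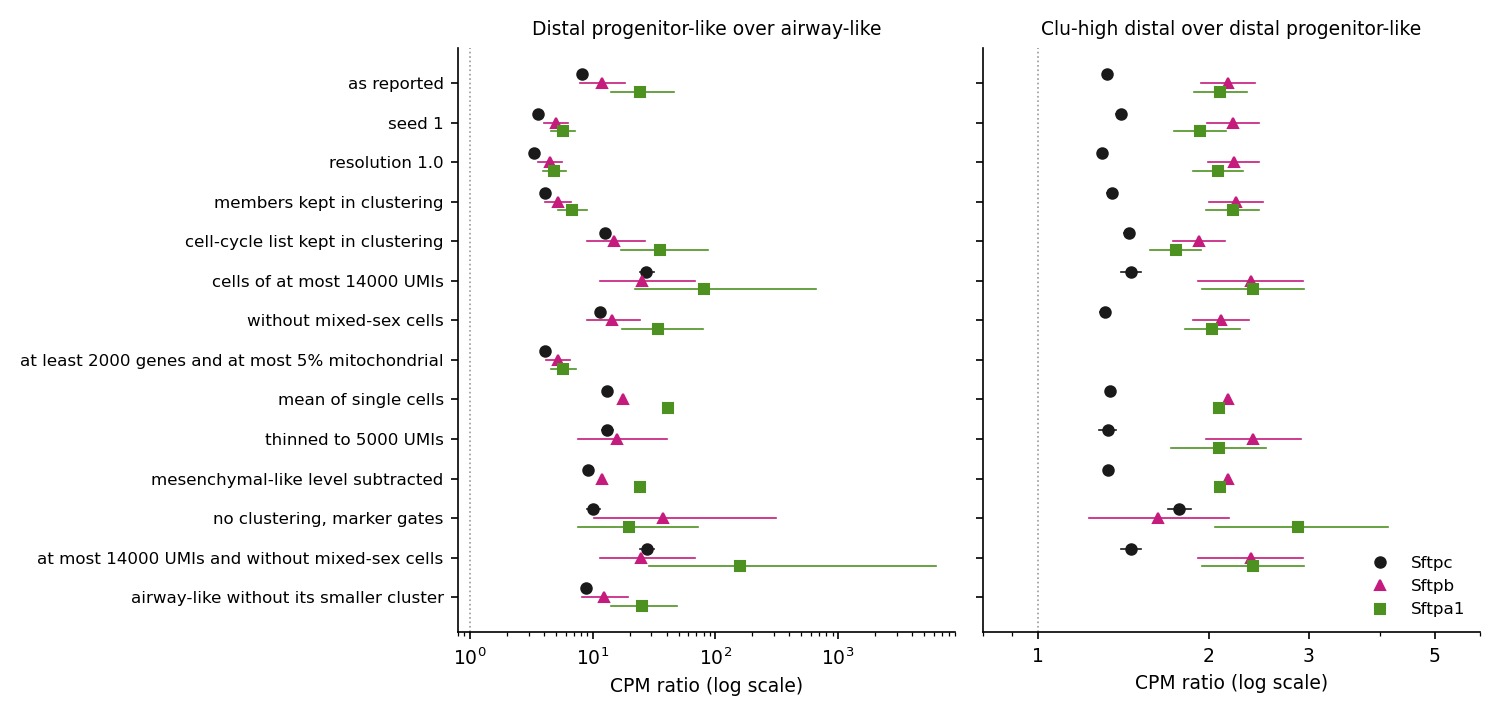
CPM ratio (log scale) of Sftpc, Sftpb and Sftpa1 between distal progenitor-like and airway-like cells (left) and between Clu-high distal and distal progenitor-like cells (right), as reported and under each alternative; lines are exact 95% intervals where the setting gives counts. All ratios lie above 1. The Sftpc ratio on the left runs from 3.32 to 27.8 and that on the right from 1.30 to 1.77. The marker gates on the right compare epithelial cells by type 2 marker UMIs and not the named classes.

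The low airway level of Sftpc was not uniform over airway cells. In airway-like cells of at most 14000 UMIs, Sftpc stood at 55.2 CPM (48.3 to 62.9), and 0.396% of those 505 cells were mixed-sex. In the 183 deeper airway-like cells it stood at 323 CPM (305 to 341), 5.84-fold higher (5.07 to 6.75), and 26.2% were mixed-sex. The 50 mixed-sex airway-like cells had 486 CPM (449 to 527), against 133 CPM (125 to 142) in the other 638. Sftpb showed the same direction with depth, at 4.69 CPM (2.82 to 7.32) in the deeper and 1.44 CPM (0.529 to 3.14) in the shallower airway-like cells.

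In distal progenitor-like cells Sftpc did not move with depth in this way. It was 1513 CPM (1489 to 1537) at up to 14000 UMIs and 1525 CPM (1494 to 1557) above, a ratio of 1.01 (0.982 to 1.03). The corresponding ratio was 0.990 (0.832 to 1.18) for Sftpb and 0.976 (0.823 to 1.15) for Sftpa1. The share of mixed-sex cells rose with depth in the distal class too, from 0.299% to 8.23%. At the lowest depth, the 32 distal progenitor-like cells of up to 5000 UMIs stood higher, at 2094 CPM (1849 to 2362), and distal progenitor-like cells among the deepest 20% of all epithelial cells had 0.816 times the Sftpc level of those among the shallowest 20% (0.775 to 0.859). Depth, mixed-sex cells and airway Sftpc moved together. The mixed-sex mark rests on raw UMIs, so part of its rise with depth is built into its definition. The part of doublets in the airway level was not tested.

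**Figure D3:**
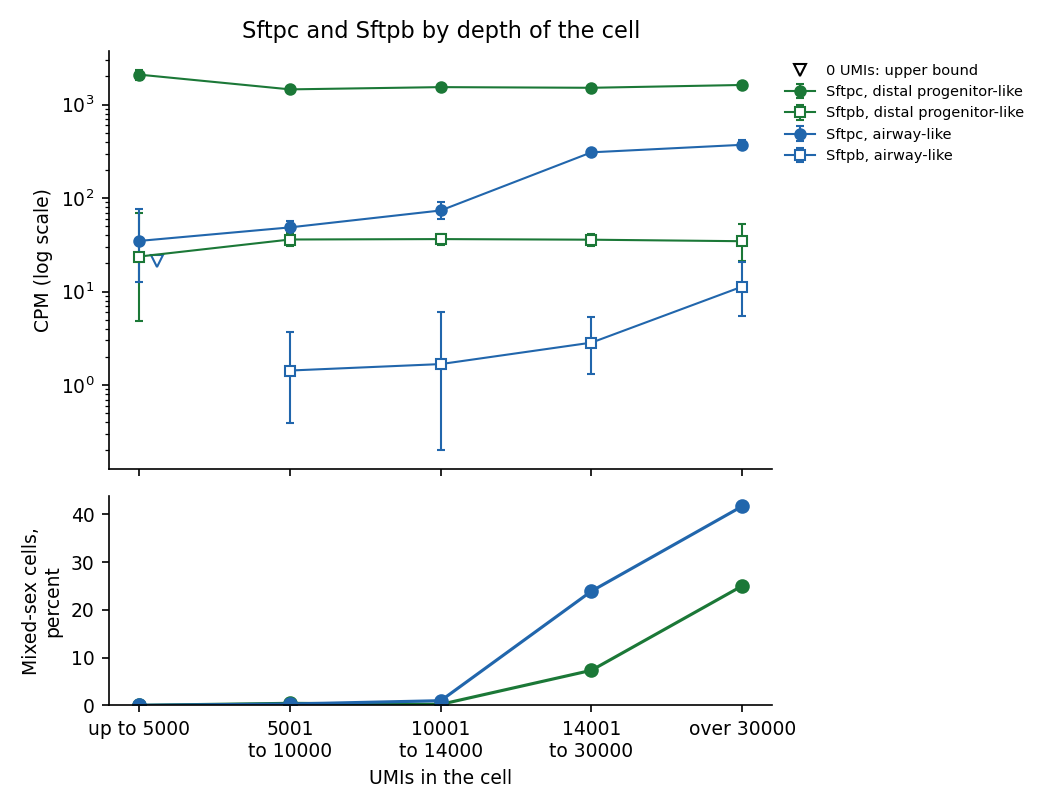
Sftpc and Sftpb in CPM (log scale, upper panel) and percent of mixed-sex cells (lower panel) in distal progenitor-like and airway-like cells by the number of UMIs in the cell, with exact 95% Poisson intervals in the upper panel. Airway Sftpc goes from 48.6 CPM in the group ending at 10000 UMIs to 372 CPM above 30000, along with mixed-sex cells from 0.279% to 41.7%. Distal Sftpc stays between 1456 and 1623 CPM over the same range. Mixed-sex cells are marked from raw UMIs, which rise with depth.

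Airway-like cells of at most 14000 UMIs that were not mixed-sex, 503 in number, had 54.6 CPM of Sftpc (47.7 to 62.1). Mesenchymal-like cells, with a median depth of 7674 UMIs against 8309, had 24.8 CPM (11.3 to 47.1), from 9 UMIs in 7 cells. The airway value was 2.20 times this free RNA level (1.14 to 4.87) and 27.8-fold lower than the distal one (24.4 to 31.9). Sftpb was left with 6 UMIs in these cells, 1.45 CPM (0.531 to 3.15), and Sftpa1 with 1. Mesenchymal-like cells had 0 UMIs of both, which allows up to 8.27 CPM, so an airway level of Sftpb or Sftpa1 above free RNA was not detectable at this depth.

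To compare cells at 1 depth, each cell was thinned at random to 5000 UMIs. Sftpc was then found in 85.7% of 1286 distal progenitor-like cells (83.7 to 87.6), 88.5% of 505 Clu-high distal cells (85.4 to 91.2), 80.9% of 892 unnamed cells (78.2 to 83.5) and 19.3% of 644 airway-like cells (16.3 to 22.5). In mesenchymal-like cells the share was 10.5%, 4 of 38 cells (2.94 to 24.8), an interval that overlaps that of the airway. Without thinning, the shares were 91.5% in distal progenitor-like, 97.2% in Clu-high distal, 88.8% in unnamed, 28.2% in airway-like and 16.7% in mesenchymal-like cells, at median depths from 7674 to 17804 UMIs.

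Sftpb was found at 5000 UMIs in 14.1% of distal progenitor-like cells (12.2 to 16.1), 29.9% of Clu-high distal cells (25.9 to 34.1), 8.18% of unnamed cells (6.47 to 10.2) and 1.09% of airway-like cells (0.438 to 2.23). Sftpa1 was found in 14.5% (12.7 to 16.6), 24.6% (20.9 to 28.5) and 9.87% (7.99 to 12.01) of the first 3 classes. In airway-like cells it was found in 0 of 644 (exact interval up to 0.571%), a limit for this depth only, since without thinning 13 of 688, or 1.89% (1.01 to 3.21), had a UMI. At this depth Sftpb and Sftpa1 were seen mostly as single molecules, with 95% of distal progenitor-like cells at 1 UMI or fewer.

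The number of Sftpc molecules varied more from cell to cell than that of nearly all other genes with at least 1 UMI per cell. At 5000 UMIs, 14.3% of distal progenitor-like cells had no Sftpc UMI, 38.5% had 1 to 4 and 47.2% had 5 or more, up to 103. The tenth of the cells with most Sftpc held 42.7% of its UMIs. The variance was 13.9 times the mean, where independent sampling of 1 common level gives a value of 1. Among 631 genes with a mean of at least 1 UMI per cell, this was the 2nd highest value after Actb, and the median gene stood at 1.16. Sftpc had a mean of 7.67 UMIs per cell, and this ratio tends to grow with the mean. In Clu-high distal cells the ratio was 15.1, the highest of 763 genes.

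Among airway-like cells, 80.7% had no Sftpc UMI and 4.50%, 29 cells, had 5 or more. The tenth of the cells with most Sftpc held 84.0% of the airway UMIs of the gene. The 29 cells had a median depth of 22602 UMIs before thinning, 24.1% were mixed-sex, and at equal depth they carried Sox9 at 131 CPM, Etv5, a target of FGF signals in distal tips, at 228 CPM and Sox2 at 96.6 CPM. In the other 615 cells, with a median depth of 9338 UMIs and 6.99% mixed-sex, the values were 32.2, 25.04 and 145 CPM. Cells with many Sftpc molecules in the airway class thus carried distal transcripts as well. Only droplets with transcripts of both sexes are counted as mixed-sex.

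**Figure D4:**
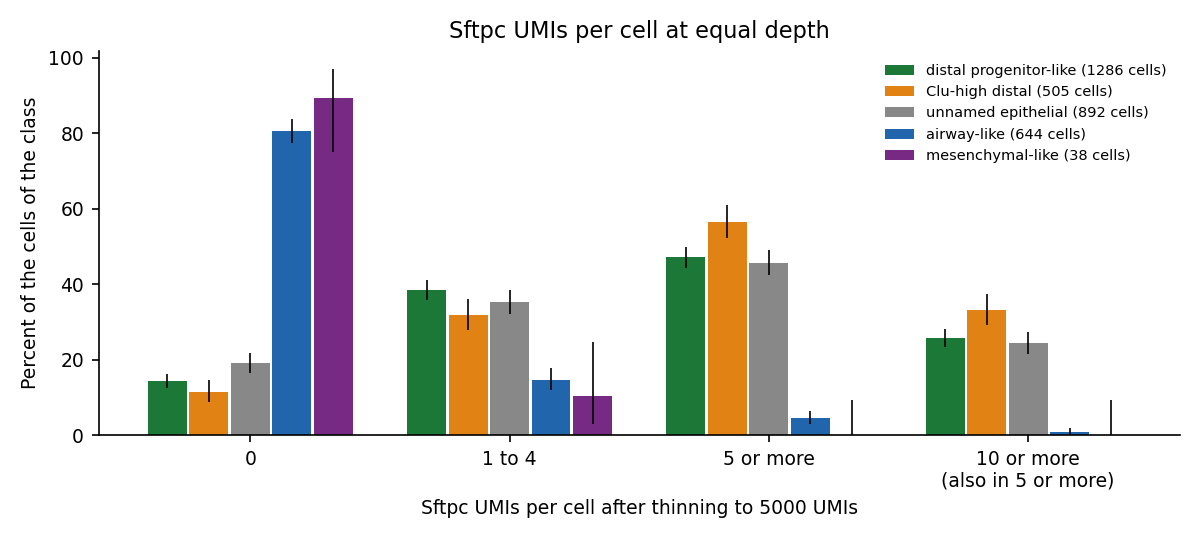
Percent of the cells of each class with 0, 1 to 4, 5 or more and 10 or more Sftpc UMIs after thinning every cell to 5000 UMIs; bars start at 0 and lines are exact 95% binomial intervals. Of distal progenitor-like cells 47.2%, of Clu-high distal cells 56.6% and of unnamed cells 45.7% have 5 or more, airway-like cells 4.50% and mesenchymal-like cells 0 of 38.

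Within the distal cells the members did not differ to the same extent. From distal progenitor-like to Clu-high distal cells, Sftpc was 1.33-fold higher (1.30 to 1.35), Sftpb 2.16-fold (1.93 to 2.41) and Sftpa1 2.10-fold (1.88 to 2.33). Thus 2 of 3 members passed 2-fold, both with an interval that includes 2. Of the 10400 genes with enough UMIs, 4.06% were at least 2-fold higher and 0.683% at least 2-fold lower in the Clu-high distal class. By rank of this ratio Sftpb was the 303rd, Sftpa1 the 356th and Sftpc the 2422nd gene. Over 11 alternatives the ratio stayed between 1.30 and 1.77 for Sftpc, 1.63 and 2.40 for Sftpb, and 1.75 and 2.87 for Sftpa1. With marker gates in place of clusters, Sftpc at 1.77 (1.69 to 1.86) was no longer below Sftpb at 1.63 (1.23 to 2.17).

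The proportion of Sftpb and Sftpa1 to Sftpc therefore differed between clusters. For 100 Sftpc UMIs, Clu-high distal cells had 3.86 of Sftpb (3.59 to 4.16) and 3.98 of Sftpa1 (3.70 to 4.27). Distal progenitor-like cells had 2.37 (2.18 to 2.58) and 2.52 (2.32 to 2.73). These figures hardly moved with depth: at up to 14000 UMIs the Clu-high distal class had 3.89 (3.21 to 4.67) of Sftpb and the distal progenitor-like class 2.39 (2.14 to 2.65).

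Among the 6 largest clusters the lowest proportions were in the unnamed cluster of 230 cells with Smoc2 and Krt15 among its leading genes. Of the 14 type 1 markers 2, Ager and Clic3, reached 2 times the level of all other cells in it, as did 2 of 12 airway markers, Krt15 and Upk3a. Its Sftpc level, 1377 CPM (1336 to 1419), was near that of distal progenitors, yet Sftpb was at 11.1 CPM (7.69 to 15.5) and Sftpa1 at 10.4 CPM (7.15 to 14.7). For 100 Sftpc UMIs it had 0.806 of Sftpb (0.558 to 1.13) and 0.759 of Sftpa1 (0.518 to 1.07). The larger airway-like cluster had 1.70 (1.08 to 2.57) and 0.889 (0.458 to 1.56), from 23 and 12 UMIs. These intervals overlap those of the unnamed cluster, and for Sftpa1 the order of both clusters was not settled. Against the Clu-high distal cluster this unnamed cluster had a ratio of 0.684 for Sftpc (0.662 to 0.708), 0.143 for Sftpb (0.0981 to 0.201) and 0.131 for Sftpa1 (0.0887 to 0.186). Of its cells 1.74% were mixed-sex, and the median depth was 11793 UMIs.

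The deep unnamed cluster, 23.1% mixed-sex at a median depth of 22242 UMIs, lay between, with 1449 CPM of Sftpc (1431 to 1468) and 1.45 Sftpb UMIs per 100 of Sftpc (1.30 to 1.61). The distal progenitor-like class itself consisted of 2 clusters. The one led by Col18a1 had 1857 CPM of Sftpc (1828 to 1886) and the one led by Spry2, an FGF feedback inhibitor, 1105 CPM (1081 to 1130), a ratio of 1.68 (1.64 to 1.73). Sftpb differed by 1.58-fold (1.33 to 1.89) and Sftpa1 by 1.24-fold (1.05 to 1.46) between them. Sox9 was in the opposite order, at 135 CPM in the cluster led by Col18a1 and 211 CPM in that led by Spry2. The smaller airway-like cluster, of 36 cells, had 187 Sftpc UMIs in 8 cells, or 510 CPM (439 to 588), and 8.33% of its cells were mixed-sex.

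**Figure D5:**
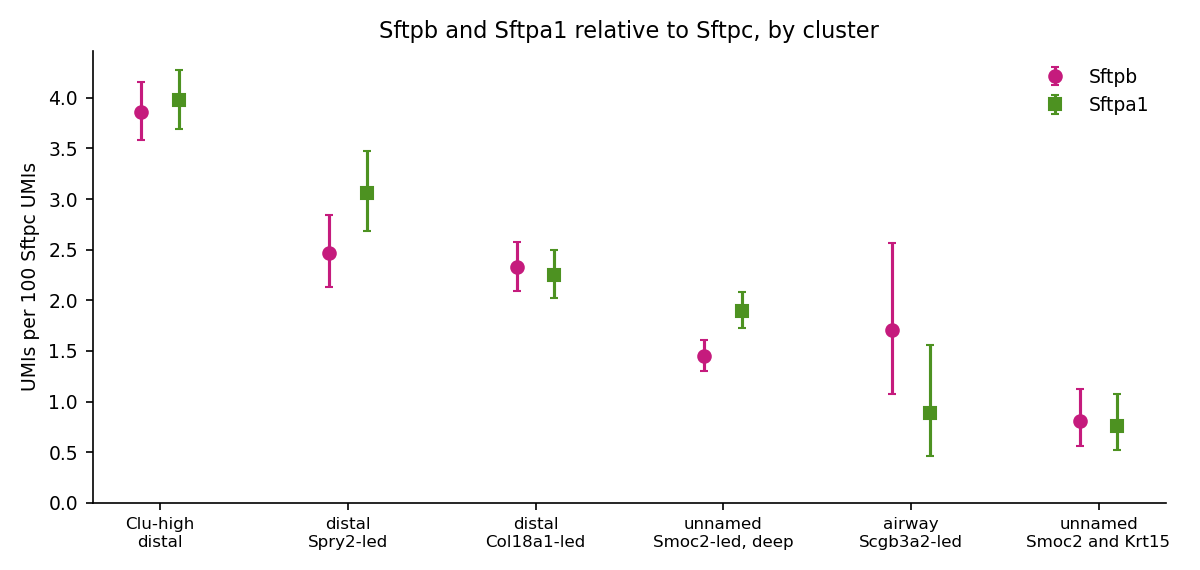
UMIs of Sftpb and Sftpa1 for every 100 Sftpc UMIs in the 6 largest clusters, with exact 95% intervals; the vertical axis starts at 0. Values run from 3.86 and 3.98 in the Clu-high distal cluster to 0.806 and 0.759 in the unnamed cluster with Smoc2 and Krt15.

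Members were seen in the same cells at the following rates, at 5000 UMIs. Sftpb and Sftpa1 occurred together in 3.89% of distal progenitor-like cells (2.90 to 5.09), where the product of their shares is 2.05%. In Clu-high distal cells the values were 9.50% (7.09 to 12.4) and 7.34%, and in unnamed cells 1.79% (1.03 to 2.90) and 0.807%. Sftpc and Sftpb occurred together in 12.6% of distal progenitor-like cells (10.8 to 14.5), against a product of 12.1%. Nearly all Sftpb-positive cells carried Sftpc, 89.5% in the distal progenitor-like class, which is close to the share of Sftpc in the class as a whole.

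Counts per cell were compared as well. Distal progenitor-like cells with an Sftpb UMI had 10.1 Sftpc UMIs per cell (9.62 to 10.6) against 7.27 (7.12 to 7.43) without, a ratio of 1.39 (1.32 to 1.46). For Sftpa1 the values were 0.392 (0.306 to 0.495) and 0.155 (0.132 to 0.180) UMIs per cell, a ratio of 2.53 (1.89 to 3.36). Both groups had similar depth before thinning, with medians of 11166 and 10993 UMIs. The intervals take each UMI as independent, while the variance of Sftpc was 13.9 times the mean in this class, so they understate the spread. The class also joined the clusters led by Col18a1 and by Spry2, which differed by 1.68-fold in Sftpc and 1.58-fold in Sftpb. The division was not made within each cluster. The 25 distal progenitor-like cells with a UMI of Lamp3, a lamellar body membrane protein of type 2 cells, had an Sftpc ratio of 1.04 (0.898 to 1.20) to the rest. For Sftpb and Sftpa1 the ratio was 2.13 (0.961 to 4.12) and 1.95 (0.880 to 3.76), with intervals that include 1.

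Sftpb is also a product of secretory airway cells, so airway-like cells were divided by a UMI of Scgb3a2, an early secretory cell gene. At 5000 UMIs the 193 cells with Scgb3a2 held 1 Sftpb UMI and the 451 without held 6, a ratio of 0.389 (0.00847 to 3.21). No rise of Sftpb with Scgb3a2 was detectable at this depth. Sftpc stood at 0.560 UMIs per cell (0.459 to 0.676) with Scgb3a2 and 0.594 (0.525 to 0.670) without, a ratio of 0.942 (0.746 to 1.18).

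Cells were also divided by a UMI of Mki67 or Top2a, genes of cycling cells. In distal progenitor-like cells Sftpc was 1.20-fold higher per cell with such a UMI (1.16 to 1.25), in Clu-high distal cells it was 0.938-fold (0.888 to 0.992), and in unnamed cells 0.993-fold (0.945 to 1.04). In the distal progenitor-like class Sftpb had a ratio of 1.32 (0.999 to 1.74) and Sftpa1 of 0.990 (0.763 to 1.29). Sftpc thus had a higher ratio in the distal progenitor-like than in the Clu-high distal class. The intervals take each UMI as independent, while the variance of Sftpc was 13.9 and 15.1 times the mean in these classes. Whether the classes differ in direction was therefore not settled. The depth before thinning also differed, with medians of 11880 and 10233 UMIs in the distal progenitor-like class. That class also joined the clusters led by Col18a1 and by Spry2, which differed in Sftpc, and Mki67 was a leading gene of the former. The division was not made within each cluster.

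The genes whose counts varied most like those of a member were found by Pearson correlation of log counts over 3327 epithelial cells at 5000 UMIs, among 6688 genes. The cells share 1 library and differ in class, so the values describe this library. Dlk1, an imprinted gene for a membrane protein related to Notch ligands, was closest to Sftpc (r = 0.356), to Sftpb (0.308) and to Sftpa1 (0.291), and its level was 936 CPM in Clu-high distal, 496 CPM in distal progenitor-like cells and 44.8 CPM in the airway. Sftpc was followed by H2afz (0.312), Etv5 (0.306), Bex4 (0.296) and Mia (0.296). For Sftpb the next were Id2 (0.217), Cthrc1 (0.207), Sftpa1 (0.200) and Clu (0.199). For Sftpa1 they were Sftpc (0.208), Sftpb (0.200), Ctsh (0.188) and Id2 (0.180). The counts of Sftpb and Sftpa1 were mostly 0 or 1 and their values are weak, and Sftpd was seen in too few cells to be placed.

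Genes that process the surfactant proteins or supply the lipid, 14 in all, were read beside the members. Between distal progenitor-like and airway-like cells 11 had enough UMIs: Ctsh, Lamp3 and Scd1 were at least 2-fold higher in distal cells, Nedd4l, a ubiquitin ligase, was at least 2-fold lower, and 7 lay between. The median log2 ratio was 0.28, beside -0.20 for all genes, of which 3.12% were called higher and 8.9% lower. Ctsh, a protease that processes SP-B and SP-C, was 2.45-fold higher in distal progenitor-like cells (69.3 CPM) than in airway-like cells (28.2 CPM), with an interval of 2.13 to 2.84. Lamp3 stood at 5.11 and 0.609 CPM. The 3 others of highest level differed less: the ratio was 0.771 (0.738 to 0.806) for Nedd4, a ubiquitin ligase that directs the sorting of SP-C, 0.966 (0.903 to 1.03) for the desaturase gene Scd2, and 1.47 (1.26 to 1.73) for Lpcat1, which makes surfactant phospholipid. Abca3, the lipid pump of lamellar bodies, was at 9.72 CPM in distal progenitor-like, 8.30 CPM in Clu-high distal and 6.94 CPM in airway-like cells. Abca3, Lamp3, Napsa, Ctsh, Lpcat1 and Slc34a2 are type 2 markers of the naming rule and were not left out of the clustering. Their ratios are therefore not independent of the classes.

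From distal progenitor-like to Clu-high distal cells none of the 12 processing genes with enough UMIs passed 2-fold in either direction, where 4.06% of all genes were called higher and 0.683% lower, so that 0 of 12 is near the share over all genes. The median log2 ratio was -0.10, beside 0.04 for all genes. Ctsh was 1.71-fold higher (1.57 to 1.86), and Fasn, the fatty acid synthase, was 0.648-fold (0.542 to 0.772). Ctsh, like Lamp3 and Napsa, was among the markers that gave the Clu-high distal class its name. By value the ratios of Sftpb and Sftpa1 were above those of all 12 processing genes. The interval of Adgrf5, at 1.47 (0.821 to 2.61), includes both ratios, so the order against that gene was not settled.

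Of 16 transcription factors known to act on surfactant genes, Etv5 and Gata6 were at least 2-fold higher in distal progenitor-like than in airway-like cells, Cebpb, Cebpd, Foxa2, Klf5 and Nfia at least 2-fold lower, and 9 lay between. That is 2 of 16 higher and 5 of 16 lower, beside 3.12% and 8.9% of all genes, with a median log2 ratio of -0.63 beside -0.20. Nkx2-1, the factor whose core motif is marked above, stood at 353 CPM in distal progenitor-like, 364 CPM in Clu-high distal and 293 CPM in airway-like cells, ratios of 1.21 (1.15 to 1.27) over the airway and 1.03 (0.988 to 1.08) over the distal progenitor-like class. Etv5 went from 266 CPM in the distal class to 45.4 CPM in the airway class (5.86-fold, 5.27 to 6.53). It was also a distal marker of the naming rule and was not left out of the clustering, so its direction was partly set by the naming. Like Sftpc, Etv5 depended on airway depth. In airway-like cells of at most 14000 UMIs that were not mixed-sex it stood at 11.6 CPM, 23.0-fold lower than in the distal class (17.3 to 31.2). The distal over airway ratio was 0.728 for Nfib (0.674 to 0.786) and 0.477 for Foxa2 (0.432 to 0.527). Between Clu-high distal and distal progenitor-like cells, 0 of 15 factors passed 2-fold in either direction, which is near the 4.06% higher and 0.683% lower over all genes. Their median log2 ratio was 0.02.

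Among 15 relatives of the surfactant proteins by protein domain, 6 had enough UMIs. Cnmd and Gkn3, which like SP-C carry a BRICHOS domain, were at least 2-fold higher in distal progenitor-like than in airway-like cells. Itm2a, another BRICHOS gene, and Psap, a saposin precursor related to SP-B, were at least 2-fold lower. That is 2 of 6 in each direction, beside 3.12% higher and 8.9% lower of all genes, with a median log2 ratio of -0.48 beside -0.20. Cnmd was near the floor in the airway class, at 0.243 CPM (ratio 15.0, interval 3.98 to 127). The most abundant, Itm2b, was at 285 CPM in distal progenitor-like, 543 CPM in Clu-high distal and 343 CPM in airway-like cells. From distal progenitor-like to Clu-high distal cells Cnmd was 2.95-fold higher (2.12 to 4.14), and Itm2a, Itm2b, Psap and Itm2c were higher by 1.94, 1.90, 1.89 and 1.48-fold. Cnmd was thus 1 of 6 past 2-fold, where 4.06% of all genes were called higher and 0.683% lower. Collectins other than SP-A and SP-D were near 0: Colec12 had 11 UMIs, Colec11 had 6 and Mbl1, the coding gene nearest to Sftpd, had 4 in all epithelial cells.

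Of 12 other secreted products of lung epithelium 4 had enough UMIs. Cxcl15, a chemokine of type 2 cells, went from 88.8 CPM in the distal to 15.1 CPM in the airway class (5.88-fold, 4.89 to 7.13), or 7.24 CPM in the shallow airway-like cells without mixed-sex ones (12.3-fold, 8.55 to 18.3). Sfta2, a surfactant-associated protein gene, was at 247 and 184 CPM (1.35-fold, 1.27 to 1.43). Scgb3a2 was in the reverse order, at 3.47 and 384 CPM, and Muc1 had a distal over airway ratio of 0.574 (0.464 to 0.712). Scgb3a2 is an airway marker of the naming rule, and Cxcl15 and Muc1 are type 2 markers of it. They were not left out of the clustering, so their ratios are not independent of the classes. Lyz2 and Lyz1, the lysozymes of mature type 2 cells, had 9 and 2 UMIs in all epithelial cells, and Scgb1a1, of mature club cells, had 7. These genes of mature cells, like Sftpd, thus gave fewer than 10 UMIs each, while Sfta2 and Cxcl15 were abundant. Over all 4 lists the same genes passed 2-fold between distal and airway cells when the airway sums held only cells of at most 14000 UMIs that were not mixed-sex, a setting chosen after seeing the data in which 4.66% of all genes were called higher and 8.58% lower.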

How the data were processed

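Single-cell 3′ RNA was read with 10x Chromium version 2 chemistry, per the labels' protocols. The deposited matrix holds raw UMI counts of 1 control library. The submitters' processing notes name mm10, Cell Ranger and Seurat without saying which step used which, and the file headers give software version 3.0.1. The counting annotation and strand setting are not given in the sources used here. Of 31053 identifiers 31011 occur in GENCODE M21, from which positions were taken.

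Cells with at least 1000 genes and at most 10% mitochondrial UMIs were scaled to 10000 UMIs and log-transformed. Clusters came from 2000 variable genes seen in at least 10 cells, without the members, a Wnt list and a cell-cycle list, with 20 components, 20 neighbours and Leiden resolution 0.5, seed 0 (scanpy 1.11.5, leidenalg 0.10.2, scikit-learn 1.9.0, scipy 1.17.1, numpy 2.4.6, Python 3.11.15, matplotlib 3.10.9). No doublet caller was run. Clusters were named from markers that exclude the members. Some genes of the lists, such as Etv5, Scgb3a2, Ctsh and Lamp3, are among these markers and were not left out of the clustering. A name needed at least 3 markers, each with 10 UMIs, at 2 times the CPM of other cells (for distal cells 1.5 times the airway CPM), without being outnumbered by another class's markers among the 10 leading genes (fold after adding 10 CPM, genes in at least 10% of the cells). A distal cluster with at least 3 type 2 markers at 2 times the CPM of other cells was named Clu-high distal. Epithelial clusters had at least 3 of 5 pan-epithelial markers at 25% of the library's CPM. Members, lists and markers were chosen with earlier results of these data known. The naming rule was written, with the Clu-high class, after clusters under 5 settings had been seen. The divisions by Lamp3, Sftpb and Sftpc UMIs, the variance to mean ratios and the comparisons of single clusters were chosen after seeing the data. Named genes are the members, the 4 of each list with most UMIs, those past 2-fold, and the 5 most correlated with each member among genes in at least 5% of cells. Others with values (Sox9, Sox2, Lamp3, Clic3, Ager, Upk3a, Abca3, Fasn, Adgrf5, and genes near 0) were chosen after their values were seen.

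CPM carry Poisson, shares Clopper-Pearson and ratios conditional intervals. The ratio step was checked on simulated counts. Depth limits low genes: 3 counts are 0.0563 CPM over all epithelial cells.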

Additional observations from a re-analysis of the deposited data

How the results depend on the processing

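Other clusterings, cell filters and sums were tried for the ratios between classes. All 38 distal over airway and 33 Clu-high over distal ratios kept their direction. Those with marker gates compared gated cells in place of the classes, in the latter comparison by type 2 marker UMIs. Values outside the counting interval of the reported ones follow.

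For distal over airway cells, in the order Sftpc, Sftpb, Sftpa1, seed 1 gave 3.55, 4.99 and 5.70, resolution 1.0 gave 3.32, 4.44 and 4.86, keeping the members in the clustering gave 4.08, 5.19 and 6.73, and at least 2000 genes with at most 5% mitochondrial UMIs gave 4.10, 5.19 and 5.72. Cells of at most 14000 UMIs gave 27.4, 25.1 and 80.2 (22.1 to 665, from 2 airway UMIs), and without mixed-sex cells in addition, which was chosen after seeing the data, 27.8, 24.9 and 160 (28.5 to 6326, from 1 airway UMI). Marker gates in place of clusters gave 10.1 for Sftpc and 37.3 for Sftpb (10.2 to 309). For Sftpc alone, keeping the cell-cycle list gave 12.7, leaving out mixed-sex cells 11.5, the mean of single cells 13.0, thinning to 5000 UMIs 13.1, subtracting the mesenchymal-like level 9.20, and leaving out the smaller airway-like cluster, also chosen after seeing the data, 8.82. Thinning left 0 airway UMIs of Sftpa1 and no ratio.

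For Clu-high distal over distal cells, Sftpc was 1.40 with seed 1, 1.30 at resolution 1.0, 1.45 with the cell-cycle list kept, 1.46 at no more than 14000 UMIs, with or without mixed-sex cells, and 1.77 with marker gates. Sftpb was 1.93 with the cell-cycle list kept and 1.63 with gates. Sftpa1 was 1.75 and 2.87 under the same settings, and 2.40 at no more than 14000 UMIs, with or without mixed-sex cells. With at least 2000 genes no cluster met the rule for the Clu-high class. The cause of these shifts was not tested.

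The share of epithelial cells with a UMI was 64.5% for Sftpc, 7.76% for Sftpb and 7.50% for Sftpa1 at 3000 UMIs, and 78.9%, 27.2% and 24.5% without thinning, since fewer or more UMIs were drawn. In distal progenitor-like cells, Sftpc above 30000 UMIs was 1.11 times (1.04 to 1.19) that between 5000 and 10000, whereas the deepest over the shallowest 20% of cells reversed to 0.816. Levels over the library moved within their intervals when all barcodes were kept. No paired analysis was possible because each group has 1 library.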
